A study of Drosophila melanogaster with 3 samples.

Results

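The Hairy peaks described here lie at protein-coding promoters that face one way. They are reproducible peaks on build dm6 whose summit was within 500 bp of a protein-coding transcription start site (TSS), with all coding TSSs within 500 bp on one strand. Summits in a coding exon or a 3' UTR were left out. Of 10233 reproducible peaks, 2909 (28.4%) met these conditions and are called members. Within the reproducible list, the rule used position and annotation only, and no motif, signal value or gene name. The list itself leaves out weaker peaks, and leaving out coding exons and 3' UTRs limits the sequence under the summits.

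The assay was ChIP-seq, in which DNA bound by a protein is precipitated, sequenced and mapped. Larvae of Drosophila melanogaster strain 15T-GFP, males and females together, were taken whole at the wandering stage of the last instar, with age given as unknown. They carried a transgene in which h was tagged with eGFP, placed at the C-terminus per the labels, and an antibody to GFP was used on sonicated chromatin. A single group of 3 biological replicates was deposited, so there was no treatment or genotype to compare, and bound promoters were compared with unbound promoters of the same kind. The transgene's regulatory sequence is not given in the sources used here. Chromatin of all tissues was pooled, so sites used by few cells may fall below the lists. The control library was not analysed here, and peaks that do not need the fusion cannot be told apart from Hairy binding.

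Hairy is a basic helix-loop-helix (bHLH) repressor of the HES family, known for its pair-rule role in the embryo and for patterning bristles and other adult structures. HES proteins recruit corepressors such as Groucho and bind E-box relatives, the class B site CACGTG, the class C site CACGCG and the N-box CACNAG. The class A E-box CAGCTG is typically bound by activator bHLH dimers. Fly core promoters come in broad types. Housekeeping promoters often hold the DNA replication-related element (DRE, TATCGATA), bound by Dref and by BEAF-32, or the Ohler 1 motif GGTCACAC, bound by M1BP. Regulated promoters more often hold a TATA box (TATAAA), an initiator (Inr, searched as TCAGT) or GAGA sites (searched as GAGAG), bound by the GAGA factor Trl. The TCT element (searched as TCTTT) is the start-site motif of translation genes.

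The first set of sequences shows the 4 motifs with the smallest adjusted p among those more frequent at bound than at unbound promoters, each at its 3 strongest members outside arms whose sequence is not shown. Each line is 30 bases of the dm6 reference, read 5' to 3' on the coding strand of the gene, with the motif in capitals. Where the motif lay on the other strand, the capitals are its reverse complement. The GAGA windows came from ph-p, which encodes a Polycomb-group protein, from CG18549 and from SLC5A11, a sodium-coupled solute transporter gene. The ACACTG windows included hry, the current symbol of h itself.
GAGA, ph-p (chrX:2136827-2136856, minus strand): tcttgcgctctgCTCTCtctgcgttcgtgt
GAGA, CG18549 (chr3R:12449067-12449096, plus strand): ctctaatacaacGAGAGtccattaatttta
GAGA, SLC5A11 (chr2L:8205191-8205220, minus strand): ctttgatcggtaCTCTCcattctagctgtc
ACACTG, CG14100 (chr3L:19590683-19590712, minus strand): tcgcgttattcaACACTGcttgcatgggcg
ACACTG, CG13921 (chr3L:1746838-1746867, plus strand): gtaaatttctgcCAGTGTaagttcgatctc
ACACTG, hry (chr3L:8675613-8675642, plus strand): acacacacacacACACTGaagcgagcaggt
Ohler 1, CG1142 (chr3R:7473765-7473794, minus strand): tactactacacGGTCACACtgtttgtatgt
Ohler 1, Taf4 (chr3L:16113212-16113241, plus strand): ttgtcgccaacGGTCACACtgcacaactcg
Ohler 1, Wdr62 (chr2L:1884587-1884616, plus strand): gtcacccctctGGTCACACtgaacacataa
Class A E-box, SLC5A11 (chr2L:8205155-8205184, minus strand): gtttttgtcgagCAGCTGgcctagtggctt
Class A E-box, REPTOR (chr3R:24572561-24572590, minus strand): tgttctctcttcCAGCTGtacaatcaaaac
Class A E-box, Hpf1 (chr3R:5791804-5791833, plus strand): ttttctattaccCAGCTGtcatggtaaagt

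The second set, chosen after the values were seen, adds the DRE, the HES-type class C site and, for contrast, TATA boxes of 3 genes without a Hairy peak. The DRE windows came from l(3)L1231, from P5CDh1, a proline catabolism gene, and from Wdr62, whose promoter also held the Ohler 1 motif. The class C windows came from larp, which encodes a La-related RNA-binding protein, from Trp1 and from CG43389. The unbound promoters belong to the gustatory receptor gene Gr10a and the cuticle protein genes Acp65Aa and Ccp84Aa.
DRE, l(3)L1231 (chr3R:14655745-14655774, minus strand): ttcttcaaaaaTATCGATAtattgaaatgt
DRE, P5CDh1 (chr3L:21840093-21840122, minus strand): gggaacgtggtTATCGATAataaagtaaac
DRE, Wdr62 (chr2L:1884614-1884643, plus strand): taattcgattcTATCGATAtcgatttgcag
Class C site, larp (chr3R:28326398-28326427, minus strand): tcacgtagccaaCGCGTGgacagcgaaaag
Class C site, Trp1 (chr2L:10010134-10010163, plus strand): aaagtttgagtaCGCGTGtaagttgggcag
Class C site, CG43389 (chr3L:3248017-3248046, plus strand): aattaacggctgCGCGTGtagagagagttc
Unbound TATA box, Gr10a (chrX:11417435-11417464, minus strand): aactattggctaTATAAAgagtattccttg
Unbound TATA box, Acp65Aa (chr3L:6152759-6152788, minus strand): ccgcgagtgcagTATAAAatgcagtggacg
Unbound TATA box, Ccp84Aa (chr3R:6704043-6704072, plus strand): gcaagcgggagcTATAAAaccgctggccgg

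In these windows all 3 Ohler 1 sites run on into TG, so that an ACACTG match overlaps each of them. Over all promoters, the Ohler 1 site was followed by TG at 52.3% of the 174 bound and 42.4% of the 356 unbound promoters that held it. ACACTG was still the more frequent at bound promoters without any Ohler 1 site, at 18.7% of 2417 bound and 12.5% of 9770 unbound, an odds ratio of 1.62. At hry the ACACTG ends a run of CA repeats, and its first base lay at -134 relative to the TSS used as reference. The printed motifs do not all lie under the summit. The E-box of REPTOR, a TORC1-responsive bZIP transcription factor gene, starts at -83 from its TSS and lies within the peak from 24572412 to 24572884. The Ohler 1 site of Taf4, which encodes a TFIID subunit, starts at 11 bp downstream of the TSS, outside the peak from 16113452 to 16113873. The printed GAGA window of ph-p also lies outside its peak, which runs from 2137029 to 2138279. So do the DRE windows of l(3)L1231 (peak from 14655081 to 14655493) and P5CDh1 (peak from 21840125 to 21840603).

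Coding TSSs on one strand were joined into promoters at gaps of at most 500 bp, which gave 16782 promoters, and 12942 of them had no coding TSS of the other strand within 500 bp. A promoter was bound if a member summit lay within 500 bp of any of its TSSs and unbound if no reproducible summit of any kind did. The 225 promoters whose only summits were no members were left out. Hairy-GFP bound 2591 of the remaining 12717, or 20.4% (95% Clopper-Pearson interval 19.7 to 21.1), and left 10126 unbound. These intervals cover counting error only, since promoters are not replicates and read depth is unknown. Of the 2909 members, 2835 lay at one-direction promoters, and 74 lay near a TSS that itself faces another one and entered no promoter comparison.

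The same share was taken in each replicate, from its strongest 10233 peaks by signal value, called its top list. Signal value is the authors' score, with no stated scale, and gave the order of peaks inside each list. The replicates gave 20.7%, 20.04% and 20.4% bound, a mean of 20.4% ± 0.35 (SD, n = 3). Of the bound promoters, 1864 (71.9%) were bound in all 3 replicate top lists, 515 in 2, 196 in 1 and 16 in none. Of the unbound promoters, 9436 (93.2%) were bound in no replicate and 28 in all 3. The reproducible list was made from the same replicates, so this recovery is not independent of it. Among unbound promoters, 2439 (24.1%) had a weaker summit of the pooled list of 30000 peaks within 500 bp, so unbound here means below the reproducible list.

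Bound promoters belonged to 2196 genes. A single member marked 2300 promoters, and 291 had 2 or 3. Of the members, 1183 (40.7%) had their summit outside coding genes, 969 (33.3%) in an intron and 757 (26.0%) in a 5' UTR. Promoters with more annotated TSSs were bound more often, with 18.7% of those with 1 coding TSS, 32.6% of those with 2 and 81 of the 162 with 3 or more. In the replicates these shares were 18.6% ± 0.35, 33.3% ± 0.61 and 47.6% ± 1.11 (SD, n = 3). A promoter with more TSSs also covers more sequence in which a summit can count. By chromosome, the share ran from 10.8% of 102 promoters on chromosome 4 (95% interval 5.51 to 18.5) to 22.8% of 2185 on X.

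Summits favoured the upstream side of the TSS. Of the members, 71.7% were upstream, the median position was -81 bp and 42.8% lay within 100 bp. The replicates had 71.3%, 70.7% and 70.0% upstream, a mean of 70.7% ± 0.65 (SD, n = 3). The 3 replicate curves run together and all peak in the 50 bp before the TSS, with 14.5%, 13.2% and 12.1% of members there. The rule leaves out coding exons and 3' UTRs, which lie mostly downstream. With the summits in coding exons and 3' UTRs put back, 71.3% of 3012 were upstream.

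**Figure D1:**
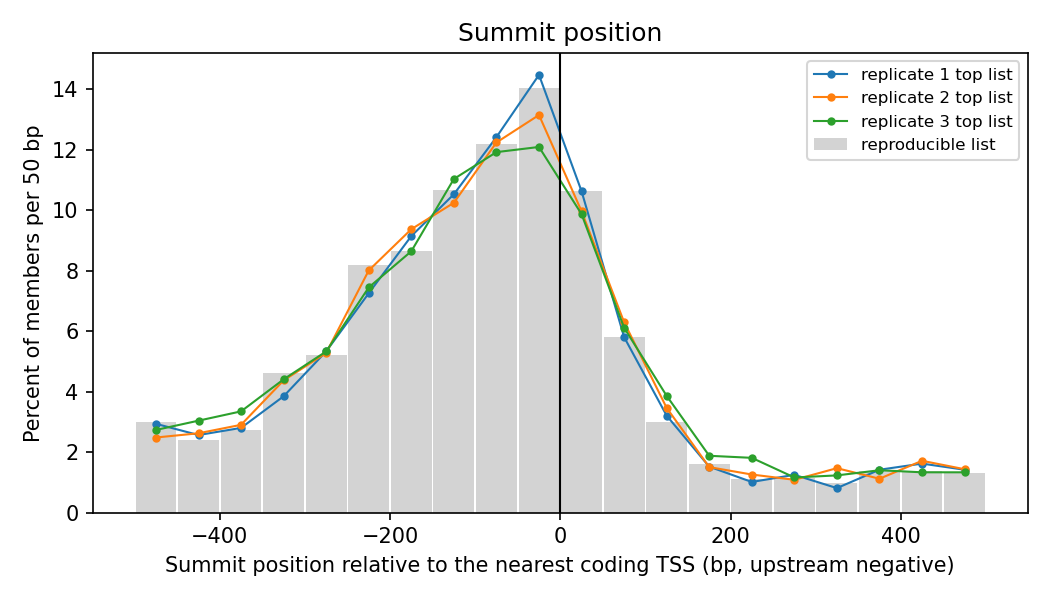
Position of member summits relative to the nearest coding TSS, in bp along the gene with upstream negative, as the percent of members per 50 bp. Grey bars are the reproducible list and lines are the 3 replicate top lists, and 71.7% of members of the reproducible list lie left of the TSS.

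The strongest members lay farther from the TSS than the weakest. The strongest 20% by signal value had a median position of -159 bp with 82.5% upstream and 8.93% within 50 bp of the TSS. The weakest 20% had a median of -45 bp with 64.6% upstream and 27.8% within 50 bp. In replicates 1, 2 and 3 the median of the strongest group was -150, -158 and -162.5 bp, and that of the weakest was -58, -45.5 and -43 bp. No replicate's value for one group reached the other. At the limits of the rule, the 128 members at 450 to 500 bp had a median signal value of 218.6. The 123 summits up to 50 bp beyond the limit, no members, had 197.7. The summits beyond the limit were taken by distance alone. They are thus not matched to the members for strand or for coding exons and 3' UTRs.

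The strongest members show this at named genes. Of the 15 strongest members found in all 3 replicate top lists, 14 were upstream of the nearest TSS, and the promoter window of 9 held GAGA. None held a DRE or Ohler 1 site there. Over all members, 71.7% were upstream. Over all bound promoters, GAGA was at 47.0%, DRE at 7.41% and Ohler 1 at 6.72%. Whether the 15 differ from these shares was not tested. The strongest was at CG14100 (FBgn0036889; chr3L:19590394-19590873), at -91 bp, with signal values of 2230, 2006 and 876 in replicates 1, 2 and 3 and ranks 3, 3 and 4. Signal values of replicate 3 were lower for each of these peaks, so only ranks are set side by side. Next came Ugalt, a UDP-galactose transporter gene (FBgn0024994; chrX:2703669-2704120), at -44 bp, with ranks 4, 4 and 3.

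The small heat shock protein gene Hsp27 had its summit at -155 bp and ranks 8, 9 and 5, and its promoter was the one with a TATA box among the 15. PNPase, which encodes a mitochondrial polynucleotide phosphorylase, was the member with a summit downstream, at 79 bp, in a 5' UTR, with ranks 10, 10 and 9. The ph-p summit lay at -445 bp in an intron of the annotated gene models, with ranks 11, 6 and 11. These 3 peaks thus kept nearly the same place in each replicate.

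At Gapdh2, a glycolytic dehydrogenase gene (FBgn0001092; chrX:15867731-15868244), the summit was at -162 bp with ranks 40, 29 and 13. At gish, a casein kinase I gene (chr3R:16280478-16280982), it was at -175 bp with ranks 26, 27 and 32. At larp (chr3R:28326318-28326888) it was at -317 bp with ranks 24, 17 and 10. The remaining members of the 15 were CG1888, CG18549, SLC5A11, the mitochondrial ribosomal protein gene mRpL41, the phosphatidate phosphatase gene Lpin, the HMG-box factor gene Sox14 and Tina-1, with pooled ranks from 5 to 34. At hry itself (FBgn0001168; chr3L:8675087-8676130) the summit at -38 bp ranked 58, 104 and 31, a wider spread than at the genes above it.

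Motifs were counted once per promoter, from 250 bp upstream to 50 bp downstream of the TSS that starts the most annotated transcripts, called the reference TSS. TATA boxes were counted from 45 to 20 bp upstream, and Inr and TCT within 10 bp of the TSS, on the coding strand. This window held the strongest summit at 1636 of the 2591 bound promoters (63.1%). Each motif was tested with a two-sided Fisher's exact test, together with every 6-mer (reverse complements merged), and Benjamini-Hochberg adjusted over these 2093 features. Of them, 408 (19.5%) were more frequent at bound promoters at adjusted p under 0.05 and 436 (20.8%) less frequent. Against this background, 9 of the 13 motifs were called more frequent, 1 less frequent and 3 not called. These motifs were chosen with earlier results of these data known, so neither this count nor their p-values are independent of the data.

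The housekeeping motifs were more frequent at bound promoters. DRE was present at 7.41% of bound and 4.52% of unbound promoters, an odds ratio of 1.69 (95% interval 1.42 to 2.01; Fisher's exact test, adjusted p = 2.47e-07). In replicates 1, 2 and 3 the odds ratio was 1.93, 1.92 and 1.88. Ohler 1 was at 6.72% and 3.52%, an odds ratio of 1.98 (exact test, adjusted p = 2.76e-10), and 2.44, 1.96 and 2.03 in the replicates. The TCT element was at 3.86% and 2.81%, an odds ratio of 1.39 with the weakest call (exact test, adjusted p = 0.0205). The TCT call was lost under 4 of the 18 alternatives, among them a distance of 1000 bp (exact test, adjusted p = 0.374).

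GAGA was the motif with the smallest p. It was at 47.0% of bound and 33.1% of unbound promoters, an odds ratio of 1.80 (95% interval 1.65 to 1.96; Fisher's exact test, adjusted p = 3.74e-36), with 1.71, 1.81 and 1.81 in the replicates. ACACTG was at 21.6% and 13.8%, an odds ratio of 1.72 (exact test, adjusted p = 2.70e-19). The initiator was at 20.7% and 16.3%, an odds ratio of 1.34 (exact test, adjusted p = 2.12e-06). CA repeats were at 8.10% and 5.53%, an odds ratio of 1.51 (exact test, adjusted p = 2.30e-05), and this call was lost among promoters whose window holds no coding base (odds ratio 1.23, adjusted p = 0.0703).

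Among the bHLH sites, the class C site was at 9.69% of bound and 6.57% of unbound promoters, an odds ratio of 1.53 (95% interval 1.31 to 1.78; Fisher's exact test, adjusted p = 1.76e-06) and 1.63 ± 0.053 over the replicates (SD, n = 3). The class A E-box was at 19.1% and 14.3%, an odds ratio of 1.42 (exact test, adjusted p = 5.86e-08) and 1.45 ± 0.024 over the replicates (SD, n = 3). The class B site, at 3.43% and 3.92%, was not called (odds ratio 0.872, 95% interval 0.690 to 1.10, exact test, adjusted p = 0.399). The N-box, at 31.1% and 30.1%, was not called either (odds ratio 1.05, 95% interval 0.956 to 1.15, exact test, adjusted p = 0.437). CAGGTA, the motif of the early embryonic activator Zelda, was at 6.68% and 6.55% (odds ratio 1.02, exact test, adjusted p = 0.883).

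The TATA box went the other way. It was at 4.75% of bound and 10.3% of unbound promoters, an odds ratio of 0.432 (95% interval 0.356 to 0.523; Fisher's exact test, adjusted p = 4.53e-19), with 0.385, 0.419 and 0.406 in the replicates. Seen from the motif, 10.5% of the 1171 TATA promoters were bound, against 21.4% of promoters without one.

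**Figure D2:**
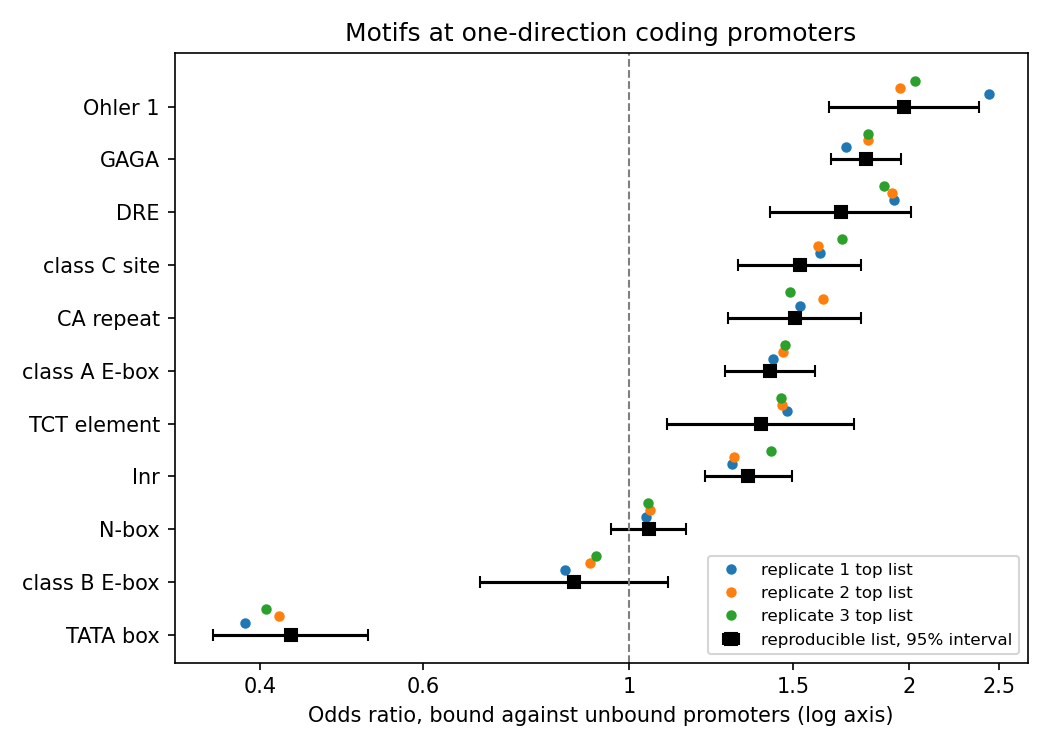
Odds ratio of each named motif at bound against unbound one-direction promoters, on a log axis where 1 means equal frequency. Squares with bars are the reproducible list with 95% intervals and dots are the 3 replicate top lists, and the TATA box lies left of 1 in each list (0.385 to 0.432).

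Motifs combined as follows. Of promoters with neither GAGA nor DRE nor Ohler 1, 15.1% of 7247 were bound, or 14.9% ± 0.36 over the replicates (SD, n = 3). GAGA alone gave 1152 bound, or 26.5%, and 26.2% ± 0.30 over the replicates, and DRE or Ohler 1 without GAGA gave 31.0% of 903, or 33.0% ± 1.28. With GAGA and either housekeeping motif together, 31.3% of 214 were bound, or 32.5% ± 2.73, which overlaps the share with the housekeeping motifs alone. A TATA box without GAGA gave 7.19% of 779, or 6.73% ± 0.32, and a TATA box with GAGA gave 17.1% of 392, or 16.2% ± 0.88.

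The motifs had set places within the promoter. DRE matches were densest in the 50 bp before the reference TSS, with 3.55 per 100 bound and 2.10 per 100 unbound promoters. GAGA matches were densest 50 to 100 bp upstream, with 44.6 per 100 bound and 17.7 per 100 unbound promoters. Ohler 1 was split evenly over the 50 bp on either side of the TSS at bound promoters, with 2.43 matches per 100 in each. At unbound promoters it had 1.04 per 100 before and 1.89 after the TSS.

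**Figure D3:**
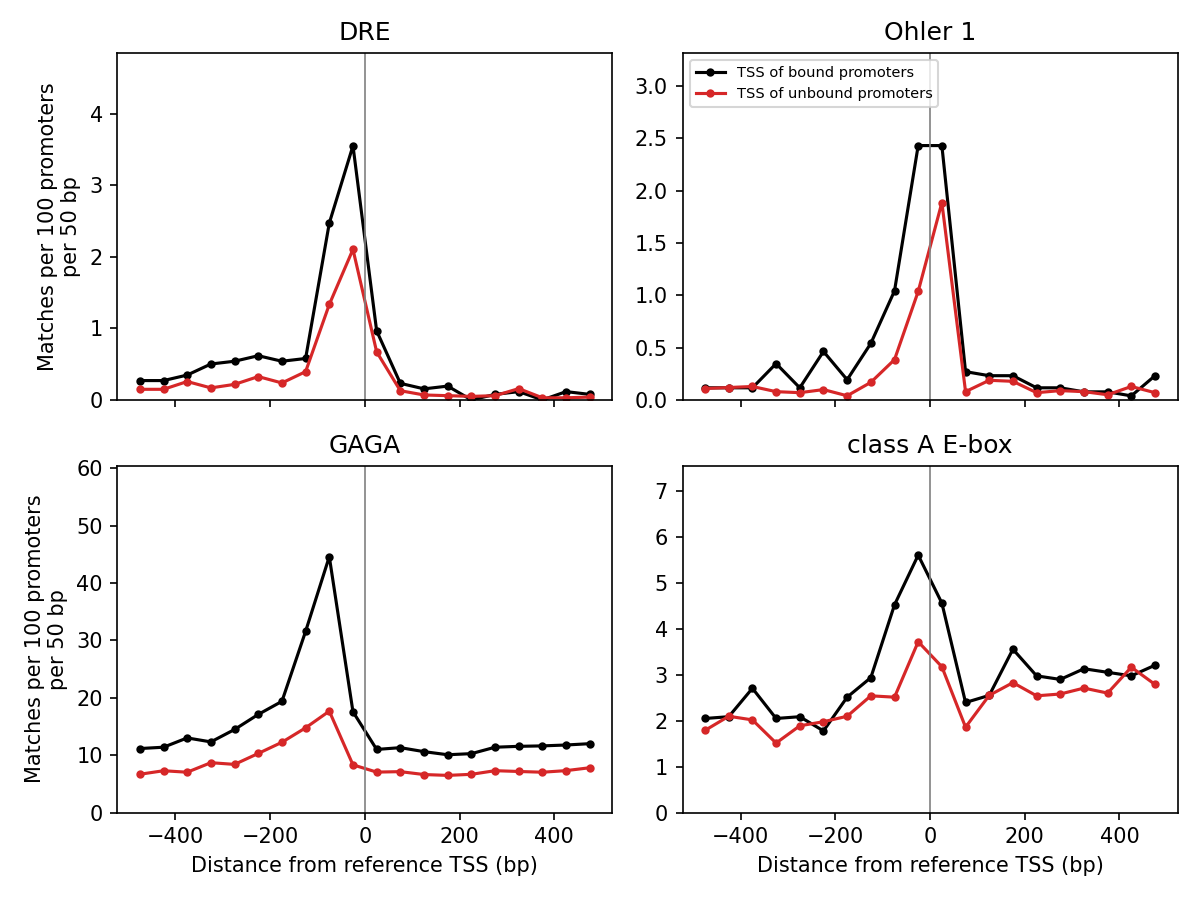
Matches of 4 motifs per 100 promoters in 50 bp bins around the reference TSS (bp, upstream negative), with bound promoters in black and unbound in red. The GAGA panel peaks 50 to 100 bp upstream in both groups, at 44.6 per 100 bound and 17.7 per 100 unbound promoters.

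The distance from summit to motif is given as a description, since only matches within 250 bp enter it. Among members with the motif within 250 bp, the median distance from summit to the nearest match was 92.0 bp for GAGA, 83.0 bp for ACACTG, 98.5 bp for the class C site and 103.5 bp for the class A E-box. For the class B site, CAGGTA and the N-box, none called between bound and unbound promoters, it was 128.0, 131.5 and 103.5 bp. For CA repeats, which were called, it was 118.5 bp, so called and uncalled motifs overlap in this distance. The match lay within 50 bp of the summit at 37.5% of these members for DRE, 32.4% for Ohler 1, 31.3% for ACACTG and 28.4% for GAGA. For GAGA the match was nearer than the TSS at 65.5% of 1802 members. For Ohler 1 it was nearer at 45.6% of 182 members, with medians of 81.5 bp to the motif and 68.5 bp to the TSS. GAGA matches were less dense next to the summit than farther out. They numbered 17.5 and 16.6 per 100 members in the 50 bp before and after the summit. At 100 to 150 bp before and after it they numbered 25.5 and 21.6 per 100. Summits with a class C site within 100 bp were spread over both sides of the TSS, with a median signed position of -6 bp against -88 bp for members without one. The replicate medians with a class C site were -9.5, 17.5 and -10 bp. The signed median does not give the distance of these members from the TSS without regard to side, which was not taken. In the wider set with a class C site within 250 bp, the median distance from the TSS was 117.5 bp. For members with a DRE within 250 bp it was 64.0 bp.

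Strength by motif was compared as ranks within each replicate top list. Members with Ohler 1 within 100 bp of the summit ranked lower by 1520, 1664 and 1730 places at the median in replicates 1, 2 and 3, a mean of 1638 ± 107 (SD, n = 3). Those with an N-box ranked 738 ± 94.4 places lower. For DRE the mean was 769 ± 338 places lower, with the replicates at 382, 925 and 1001. For ACACTG the difference was 8.83 ± 87.2 places, smaller than its spread.

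Base composition moved with binding too. The promoter windows of bound promoters had 42.3% GC and those of unbound promoters 40.4%, a difference of 1.82 ± 0.16 percentage points over the replicates (SD, n = 3). Coding sequence of any annotated transcript was in 7.33% of bound and 29.1% of unbound windows, a difference that the rule in part builds in by leaving out summits in coding exons. The part of coding sequence and GC in the motif results was tested only by the alternatives, in which the odds ratios of DRE, Ohler 1, the GAGA sites, the ACACTG motif, the class A E-box, the class C site, Inr and the TATA box kept their direction and call.

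The 6-mers with the highest odds ratios all held GAG. AGAGCG was at 26.9% of bound and 14.2% of unbound promoters, an odds ratio of 2.22 (Fisher's exact test, adjusted p = 7.92e-46). GCGAGA (2.13), AGAGAG (2.13), GAGCGC (2.05), GAGAGA (2.03) and AGCGAG (2.01) followed. AGAGAG and GAGAGA hold the GAGA motif, and the others, AGAGCG included, hold GCG and no full GAGAG. The lowest were CAGGAC (0.385), CCAGGA (0.402), AAGGAC (0.409), AGGATC (0.463), ATCCTG (0.464) and AGGACA (0.478). CAGGAC was at 2.62% of bound and 6.55% of unbound promoters (exact test, adjusted p = 8.44e-15). Among promoters whose window holds no coding base, AGAGCG had an odds ratio of 1.94 and CAGGAC 0.371.

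A comparison within genes holds the gene constant. For 668 genes with both a bound and an unbound one-direction promoter, the bound promoter with the strongest member was paired with the nearest unbound one, giving 664 distinct pairs with a median distance of 3191 bp. The bound promoter was the upstream one in 408 of the 664 pairs. By an exact McNemar test adjusted over the 13 motifs, 5 were more frequent at the bound promoter, none was less frequent and 8 were not called at adjusted p under 0.05. Unadjusted p was also above 0.05 for each of these 8 motifs.

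GAGA was at 58.3% of the bound and 43.8% of the unbound promoters of the same genes, present in the bound one alone in 207 pairs and in the unbound one alone in 111 (exact McNemar test, adjusted p = 1.04e-06). ACACTG was at 20.5% and 12.2% (121 against 66 pairs, exact test, adjusted p = 0.000305). The initiator was at 26.5% and 17.3% (144 against 83 pairs, exact test, adjusted p = 0.000305). DRE was at 4.97% and 1.66% (33 against 11 pairs, exact test, adjusted p = 0.0041). The class A E-box was at 19.7% and 14.0% (exact test, adjusted p = 0.0193).

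The TATA box, so uneven between genes, was at 3.31% of bound and 4.37% of unbound promoters within genes, and this was not called (19 against 26 pairs, exact McNemar test, adjusted p = 0.483). The class C site was at 12.5% and 9.79% (72 against 54 pairs, exact test, adjusted p = 0.241) and Ohler 1 at 4.37% and 2.56% (29 against 17 pairs, adjusted p = 0.225). The bound reference TSS started more annotated transcripts than its unbound partner in 314 pairs and fewer in 107, and the part of annotation in these differences was not tested.

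**Figure D4:**
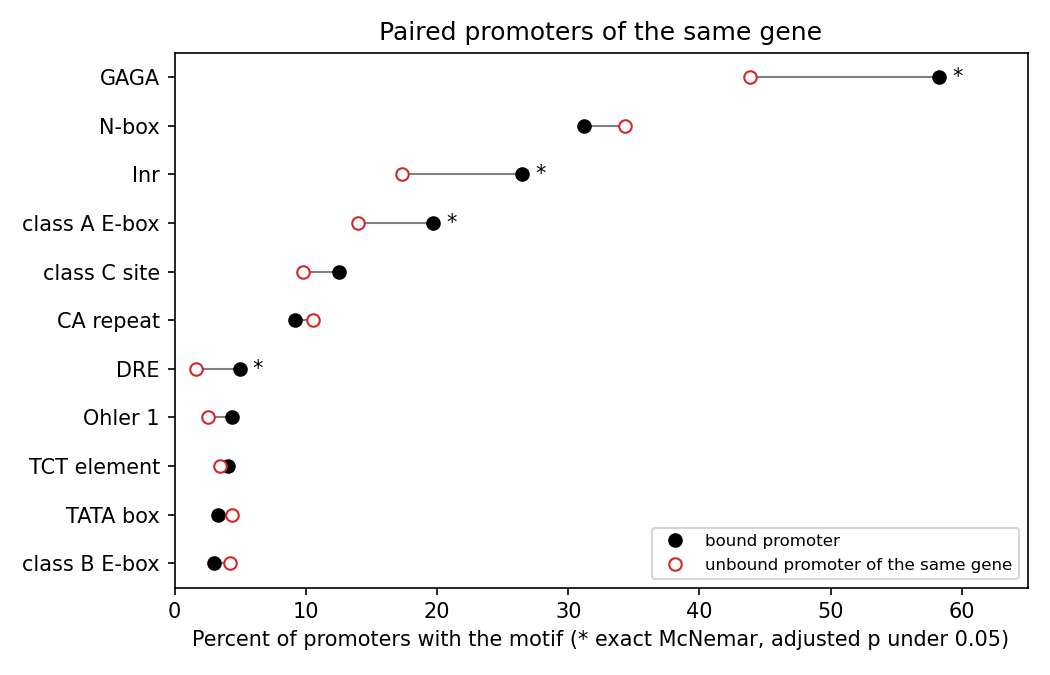
Percent of the 664 paired promoters with each named motif, with the bound promoter filled and the unbound promoter of the same gene open. Asterisks mark adjusted p under 0.05 in exact McNemar tests, and GAGA shows the widest gap (58.3% against 43.8%).

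Among the 5 genes with the strongest such pairs, larp had its bound TSS 2019 bp from the unbound one, with GAGA at both and a class C site at the bound promoter alone. At gish the promoters were 7888 bp apart, with GAGA at the bound one and an N-box and CA repeats at the unbound one. At Trp1 they were 973 bp apart, both with a class C site, and GAGA and an N-box were at the bound promoter alone. Lpin and Fkbp14, which encodes a peptidyl-prolyl isomerase, were the others, at 3526 and 719 bp, with GAGA at the bound promoter alone in each.

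Target genes were read from lists of gene symbols, each as the number of one-direction promoters bound of those on the list, beside 20.4% over all of them. No test was made on these counts. The intervals are Clopper-Pearson and the replicate values are from the top lists. The intervals take promoters as independent, although a gene can have several of them.

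Translation genes lay above that level in part. Of the promoters of cytoplasmic ribosomal protein genes, 39 of 55 were bound, or 70.9% (95% interval 57.1 to 82.4), with 79.6%, 68.5% and 70.4% in replicates 1, 2 and 3. Their peaks were mid-ranked, from 839 to 9033 with a median of 4335, and 32 of the 39 lay upstream, at a median of -31 bp. The strongest were at RpL23A (-113 bp, rank 839), RpL24 (-27 bp, rank 883) and RpL30 (24 bp, rank 1038). DRE was at 13 of the 39 bound and 1 of the 16 unbound ribosomal protein promoters, and the TCT element at 16 of 39 and 11 of 16. Only part of the ribosomal protein genes have a one-direction promoter, 52 of 86.

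Translation factor genes had 13 of 38 promoters bound (34.2%, interval 19.6 to 51.4, which includes 20.4%, and replicates 36.2% ± 3.56, SD, n = 3). Their strongest members were at eIF6 (-106 bp, rank 74), a factor of ribosomal subunit joining, eEF1gamma (-45 bp, rank 922), an elongation factor subunit, and eIF3c (-58 bp, rank 1103), and each of these promoters held a DRE. They are the 3 of 13 bound promoters on the list with a DRE, which was also at 6 of its 25 unbound promoters. By contrast, 2 of 20 mitochondrial ribosomal protein promoters were bound (interval 1.23 to 31.7%), although mRpL41 is among the 15 strongest members and mRpL19 was at rank 7998. Of aminoacyl-tRNA synthetase promoters 2 of 14 were bound, at AlaRS (rank 2478, with a DRE) and AspRS-m (rank 8554). A DRE was at 35.0% of the mitochondrial ribosomal protein promoters and at 25.5% of the cytoplasmic ones.

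Metabolic lists differed from one another. Glycolysis genes had 10 of 17 promoters bound (58.8%, interval 32.9 to 81.6; replicates 52.9%, 58.8% and 47.1%), led by Gapdh2, by Eno, the enolase gene (-217 bp, ranks 111, 136 and 111), and by Hex-A, a hexokinase gene (-148 bp, ranks 300, 261 and 137). All 3 hold GAGA, which was at 7 of the 10 bound and 0 of the 7 unbound glycolysis promoters. The 17 glycolysis promoters belong to 9 genes, 6 of them with a bound promoter. TCA cycle genes had 8 of 13 bound (61.5%, interval 31.6 to 86.1; replicates 46.2%, 69.2% and 61.5%). Their strongest members were at the isocitrate dehydrogenase genes Idh (6 bp, rank 1351) and Idh3b (-60 bp, rank 2903) and at Ogdh (-110 bp, rank 5282). Oxidative phosphorylation genes had 8 of 49 bound (16.3%, interval 7.32 to 29.7), led by ND-B22, a complex I subunit gene (rank 3244).

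Other cell-biological lists lay on both sides of the overall share. Bound promoters numbered 10 of 29 for Rab GTPases (34.5%), with replicates at 41.4%, 31.0% and 20.7%, and Rab5, of early endosomes, was the strongest (-229 bp, rank 427). They were 7 of 24 for V-ATPase subunits (29.2%), led by VhaM9.7-c (rank 3917), and 4 of 24 for the proteasome (16.7%), led by Rpn11 (rank 3204). The Mediator list had 1 of 13 (7.69%), at MED4 (rank 3296). The 95% interval of each of these 4 lists includes 20.4%.

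Among regulatory genes, ecdysone response genes had 23 of 53 promoters bound (43.4%, interval 29.8 to 57.7), and 41.5%, 42.3% and 49.1% in the replicates. These promoters belong to 19 genes, 12 of them with a bound promoter. Their strongest members were at Eip75B, an early nuclear receptor gene of the ecdysone cascade (34 bp, ranks 158, 157 and 147), Eip63F-1 (465 bp, rank 335) and the cell death gene hid (-327 bp, rank 377). GAGA was at 16 of the 23 bound and 19 of the 30 unbound promoters of this list. Insulator and promoter factor genes had 6 of 13 bound in the reproducible list (46.2%, interval 19.2 to 74.9, which includes 20.4%) and 46.2% in each replicate. They included Trl (133 bp, rank 747), which encodes the GAGA factor, BEAF-32 (-61 bp, rank 2467), which encodes a DRE-binding insulator protein, and Clamp (482 bp, rank 3417), which encodes a GA-repeat binding protein.

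The HES family, to which Hairy belongs, had 5 of 12 promoters bound, 41.7% in the reproducible list (interval 15.2 to 72.3) and in each replicate. They were led by hry and by the Notch targets E(spl)m7-HLH and E(spl)m3-HLH, with summits at -370 and -299 bp. Ranks in replicates 1, 2 and 3 were 859, 707 and 7156 at E(spl)m7-HLH, so replicate 3 stands far below the others there. E(spl)m3-HLH ranked 2207, 1253 and 789. GAGA was at all 5 bound and 3 of the 7 unbound HES promoters.

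Heat shock genes had 8 of 24 promoters bound (33.3%, interval 15.6 to 55.3), led by Hsp27, Hsp26 (-135 bp, ranks 366, 269 and 433) and the mitochondrial chaperonin gene Hsp60A (rank 3871). Cytochrome P450 genes had 11 of 86 (12.8%, interval 6.56 to 21.7), with the strongest at Cyp310a1 (-483 bp, rank 301), Cyp6u1 (rank 320) and Cyp6a2 (-391 bp, rank 1748). The Cyp6u1 summit was nearest to a TSS of Ufsp1, which shares the promoter, so the peak cannot be given to one of them.

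Cuticle, sensory receptor and immune peptide genes were seldom bound at one-direction promoters. Cuticle protein genes had 1 of 121 promoters bound, or 0.826% (95% interval 0.0209 to 4.52), at Cpr12A (-299 bp, rank 6819), and 1.10% ± 0.48 in the replicates (SD, n = 3). Chemosensory receptor genes had 0 of 178, which allows up to 2.05%, and antimicrobial peptide genes 0 of 18, which allows up to 18.5%. Unbound promoters included those of Gr10a and Gr10b and of the attacin genes AttA and AttB. A TATA box was at 60.3% of the cuticle and 55.6% of the antimicrobial peptide promoters, but at 8.43% of the chemosensory ones.

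Digestive protease genes had 3 of 23 promoters bound (13.04%), at Jon65Aiii (rank 1285), Jon25Bii (rank 4068) and Jon65Aiv (rank 5807), and each of these promoters has a TATA box, as do 14 of the 20 unbound ones. The Jon25Bii peak ranked 19103 in replicate 1, outside its top list, and 5637 and 3583 in the others. Larval glue and serum protein genes had 2 of 12 bound (16.7%), at the salivary glue genes Sgs5 (-87 bp, ranks 1604, 2166 and 2405) and Sgs1 (-169 bp, ranks 1834, 2491 and 2373), both with a TATA box, which was also at 4 of the 10 unbound promoters of the list. The Hox list, with 8 genes, had 0 of 18 bound promoters, Abd-B and Antp included, which allows up to 18.5%. Of the Hox promoters, 83.3% hold GAGA. Replicate 3 had 5.56% of Hox promoters bound and the others 0.

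**Figure D5:**
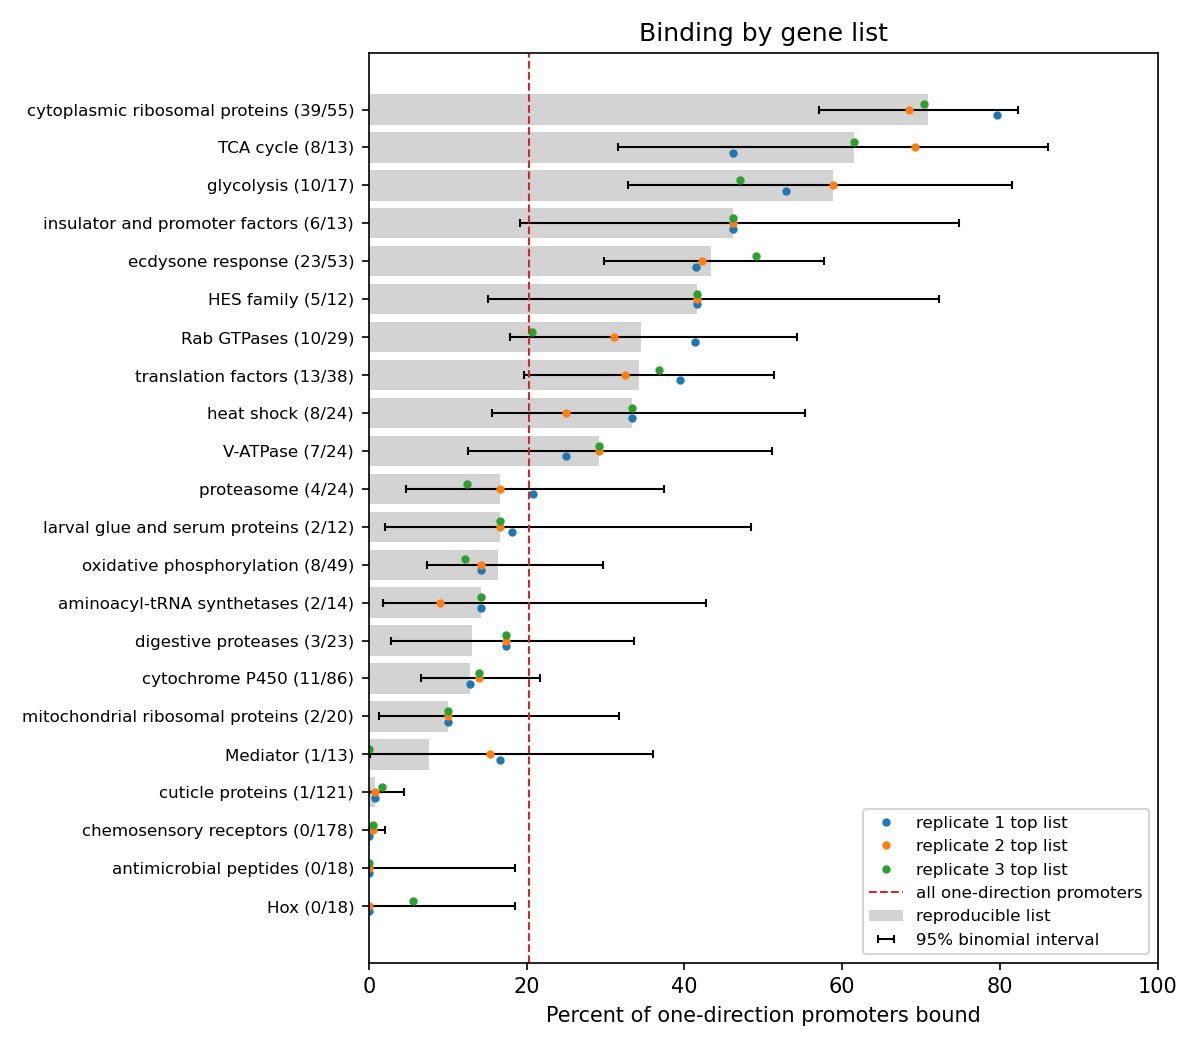
Percent of one-direction promoters bound for each gene list, with the bound and total promoters in parentheses. Bars are the reproducible list, black lines 95% binomial intervals, dots the 3 replicate top lists and the dashed line all one-direction promoters (20.4%), and the shares run from 0 for Hox, antimicrobial peptide and chemosensory receptor genes to 70.9% for cytoplasmic ribosomal proteins.

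Set beside the other reproducible peaks, the members were of ordinary strength. Their median rank in the replicates was 4950 ± 165 (SD, n = 3), against 3679 ± 295 for the 1047 peaks at divergent coding promoters and 5319 ± 122 for the 6166 peaks farther than 500 bp from a coding TSS. A mean of 86.9% ± 3.56 of members lay inside a peak of a replicate top list, 90.6% ± 3.47 of divergent and 87.0% ± 2.57 of distal summits (SD, n = 3), and these overlap. Within 100 bp of the summit, DRE was at 5.12% of members, 12.6% of divergent and 0.405% of distal peaks. GAGA was at 33.4%, 15.6% and 25.1%, and the class C site at 8.83%, 4.97% and 5.21%. These differences between peak classes were not tested.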

How the data were processed

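Peak lists of anti-GFP ChIP-seq from 3 replicates were used on build dm6. The authors deposited 30000 peaks per replicate, a pooled list of 30000 and a reproducible list of 10233, and each peak carries a signal value, a score of unstated scale, used for ranks only, with the aligner, peak caller and reproducibility threshold not given in the sources used here. Lists on build dm3 were not used here, and read depth is unknown.

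TSSs came from Ensembl release 115 for X, 4 and both arms of chromosomes 2 and 3, and sequence from the NCBI release 6 assembly of the same build. Counts, Fisher's exact and exact McNemar tests were run in Python 3.11.15 with numpy 2.4.6, pandas 2.3.3, scipy 1.17.1 and matplotlib 3.10.9. The screen was tested on simulated data in which each 6-mer was drawn independently. Overlap between 6-mers and differences in GC or coding sequence were thus not covered by that test. Intervals are Clopper-Pearson at 95%, or for odds ratios normal on the log scale. Replicate top lists hold the 10233 strongest peaks, and a mean ± SD is over the 3 of them. P-values treat promoters as independent and cover counting error only.

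Members, motifs and gene lists were chosen with earlier results of these data known. The symbols Nc73EF, Pyk, Z4 and Eip71CD were not found in the annotation. Named genes are those of the nearest TSS for the 15 strongest members in all 3 top lists, up to 3 with the strongest member per gene list, the 3 strongest per printed motif, the 5 strongest with paired promoters, the first 2 unbound of the 3 lowest lists, and hry. Named 6-mers are the 6 highest and 6 lowest odds ratios among those called and present in at least 100 promoters. Alternatives covered promoter distance, stricter lists, each replicate, windows, reference TSS, GC, arms, number of TSSs and 1 promoter per gene. Windows without coding bases, the alternatives for pairs and the DRE, class C and TATA sequences were chosen after seeing the data.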

Additional observations from a re-analysis of the deposited data

How the results depend on the processing

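DRE, Ohler 1, the GAGA sites, the ACACTG motif, the class A E-box, the class C site, Inr and the TATA box kept their direction and their call under all 18 alternatives, with odds ratios from 1.45 to 2.14 for DRE, 1.49 to 2.08 for GAGA and 0.358 to 0.493 for the TATA box. The 2 alternatives of window size leave Inr, the TATA box and the TCT element unchanged by construction and so do not test them. The TCT element lost its call with a distance of 1000 bp (odds ratio 1.16), the most upstream TSS (1.33), 1 promoter per gene (1.31) and windows without coding bases (1.34), and CA repeats with windows without coding bases (1.23). Less frequent features numbered 284 instead of 436 with members above the median signal value, 672 with a window within 500 bp of the TSS and 242 with windows without coding bases. Motifs called within genes numbered 5, and 7 at 250 bp and with a window within 500 bp, 6 with unbound promoters also outside the pooled list and in the top lists of replicates 1 and 3, and 4 with a window within 100 bp. They fell to 3 with members above the median signal value, where DRE (exact McNemar test, adjusted p = 0.136) and the class A E-box (0.22) were lost. The class A call within genes was also lost at 1000 bp (0.0634) and with a window within 100 bp (0.104). The share of promoters bound was 16.6% at 250 bp, 24.9% at 1000 bp, 15.6% with members in all 3 top lists, 12.03% with members above the median signal value and 19.9% with no TSS of any gene on the other strand. The upstream share was 65.9% at 1000 bp, 74.4% in all 3 top lists, 77.3% above the median signal value and 70.7% as the replicate mean. Leaving out each replicate gave 70.3% to 71.0% upstream. Recovery by a replicate summit within 100 bp was 83.2% instead of 86.9%. The cause of these changes was not tested. Read depth is unknown, and short lists such as TCA cycle (13 promoters) rest on few genes.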
